A study of Mus musculus with 4 samples.

Results

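The TNF receptor superfamily genes of T cells described here were 10 genes taken by symbol: Tnfrsf4, Tnfrsf9, Tnfrsf18, Tnfrsf1a, Tnfrsf1b, Cd27, Tnfrsf14, Tnfrsf25, Tnfrsf26 and Fas. All 10 were found among the 52636 genes of the deposited count table and all 10 had enough reads to be among the 10216 genes tested. RNA was sequenced from mouse regulatory T cells sorted as CD4+CD62L+CD25bright, in 2 libraries labelled Vav1R63WThemis1-T-/- and 2 Vav1R63W libraries, replicates 2 and 3 of each. All mice were C57BL/6 and 7 weeks old, and both groups carry the Vav1R63W allele of Vav1, an exchange factor and adaptor of T cell receptor signalling, so that the labelled difference is the loss of Themis1, a T cell receptor signalling protein. The driver of the Themis1 deletion is not given in the sources used here, and no group without the Vav1 allele was analysed here. Whether the replicates are separate animals is not stated in the labels, so the spread behind each p-value is that of these samples and may be technical.

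TNF receptor superfamily proteins are membrane receptors that trimeric ligands cluster. OX40, GITR, 4-1BB and CD27 are costimulatory receptors that bind TRAF adaptors and activate NF-kB, while Fas, TNFR1 and DR3 carry a death domain and can recruit FADD or TRADD. Regulatory T cells are known for high OX40 and GITR, and their number and fitness depend in part on signals through this family.

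The libraries held 15953194 and 13963670 gene reads in the libraries labelled Vav1R63WThemis1-T-/-, and 14003757 and 14398002 in the Vav1R63W libraries. Themis, the targeted gene, had 685 and 0 reads in the libraries labelled Vav1R63WThemis1-T-/-, against 283 and 97 reads in the Vav1R63W libraries. The Themis reads of replicate 2 thus do not bear out its label, and every difference given here is between labels. Gene counts cannot show a deletion of exons that carry few reads, and reads of single exons were not examined, so the label was not settled. Foxp3, the lineage transcription factor, was at 1014 and 737 CPM (reads of a gene per megaread assigned to genes) in the libraries labelled Vav1R63WThemis1-T-/-, against 904 and 636 CPM in the Vav1R63W libraries. Of the defining markers of other cells, all 8 monocyte and macrophage markers and Cd8a had no read in any library, and 5 of 9 B cell markers had none. The other CD8 T cell marker, Cd8b1, did have reads, at 30.3 and 19.3 CPM in the libraries labelled Vav1R63WThemis1-T-/-, against 26.1 and 38.5 CPM. The summed B cell markers were at 1312 and 1370 CPM in the libraries labelled Vav1R63WThemis1-T-/-, against 1180 and 1303 CPM in the Vav1R63W libraries, nearly all of it Ighm, and Cd79b was at 35.5 and 62.7 CPM, against 58.3 and 63.6 CPM. Their part in the receptor levels was not tested.

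Tnfrsf4 and Tnfrsf18, which encode OX40 and GITR, are neighbours on the plus strand of chromosome 4, at chr4:156013843-156016612 and chr4:156026164-156028895 (GRCm38). A stretch of 9551 bases with 2 other genes lies between them. Of the 10 genes, 6 are on chromosome 4: these neighbours, Tnfrsf9, Tnfrsf1b, Tnfrsf14 and Tnfrsf25. Promoter windows from RefSeq (GRCm38.p6), 250 bases before to 50 after each start site, were at hand for 9 of the 10, in 11 windows, and not for Tnfrsf26. They were searched on both strands for the kappaB consensus, the site of the NF-kB factors downstream of these receptors, and for the AP-1 site TGANTCA. The windows of the neighbours and of Tnfrsf9 are shown because these are the abundant costimulatory receptors on this chromosome, and because the Tnfrsf9 window holds both motifs; capitals mark motif matches. The windows are chr4:156013445-156013744 for Tnfrsf4, chr4:156026072-156026371 for Tnfrsf18 and chr4:150927749-150928048 for the downstream of the 2 Tnfrsf9 starts, all on the plus strand and written 5′ to 3′.
Tnfrsf4: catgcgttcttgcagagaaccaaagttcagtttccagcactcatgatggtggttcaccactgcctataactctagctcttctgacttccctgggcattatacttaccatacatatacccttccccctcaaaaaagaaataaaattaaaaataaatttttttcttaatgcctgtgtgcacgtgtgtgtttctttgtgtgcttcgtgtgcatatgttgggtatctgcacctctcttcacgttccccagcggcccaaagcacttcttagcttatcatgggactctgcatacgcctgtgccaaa
Tnfrsf18: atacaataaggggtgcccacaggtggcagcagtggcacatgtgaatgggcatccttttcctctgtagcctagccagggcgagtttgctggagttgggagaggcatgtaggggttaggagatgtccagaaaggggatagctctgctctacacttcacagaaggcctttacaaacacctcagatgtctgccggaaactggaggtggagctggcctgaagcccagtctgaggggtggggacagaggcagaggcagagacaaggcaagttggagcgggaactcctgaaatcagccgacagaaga
Tnfrsf9: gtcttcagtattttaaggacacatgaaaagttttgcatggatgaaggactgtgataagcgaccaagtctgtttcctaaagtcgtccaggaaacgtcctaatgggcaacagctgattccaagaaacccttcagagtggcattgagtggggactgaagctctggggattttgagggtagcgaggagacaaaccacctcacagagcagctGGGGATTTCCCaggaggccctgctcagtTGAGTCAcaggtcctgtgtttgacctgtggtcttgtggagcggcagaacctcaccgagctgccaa

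In the Tnfrsf9 window 2 kappaB matches overlap, starting 43 and 42 bases before the start site, and an AP-1 match starts 15 bases before it. These letters were not found in the windows of Tnfrsf4, Tnfrsf18 or the upstream Tnfrsf9 start. Of the 11 windows, 2 held a kappaB match (Tnfrsf9 and Tnfrsf25) and 2 an AP-1 match (Tnfrsf9 and Fas). Over all 32851 promoter windows, 8.46% held a kappaB match and 7.81% an AP-1 match. A match describes letters only, and the gene counts do not separate the start sites.

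None of the 10 receptor genes passed the test between the labels. By the edgeR quasi-likelihood test 0 of 10216 genes (0%) passed at an adjusted p under 0.05, with 509 genes and 0 of the receptor genes at an unadjusted p under 0.05. DESeq2 called 206 of 10972 genes (1.88%), the authors' deposited table called 123 of 7865 (1.56%), and limma-voom called 0 with 483 at an unadjusted p under 0.05. Each of them called 0 of the 10, and 9 of the 10 have an adjusted p in the authors' deposited table. The log2 fold changes, label Vav1R63WThemis1-T-/- over Vav1R63W, were negative for 7 receptor genes and positive for 3, with a median of -0.10, against 0.00 over all genes tested. For 3 receptor genes both libraries labelled Vav1R63WThemis1-T-/- were below both Vav1R63W libraries, and for 0 they were above both. Over all genes tested, 18.7% lay below without overlap and 15.1% above. In bulk RNA, fewer cells that express a receptor and less RNA per cell cannot be told apart.

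**Figure D1:**
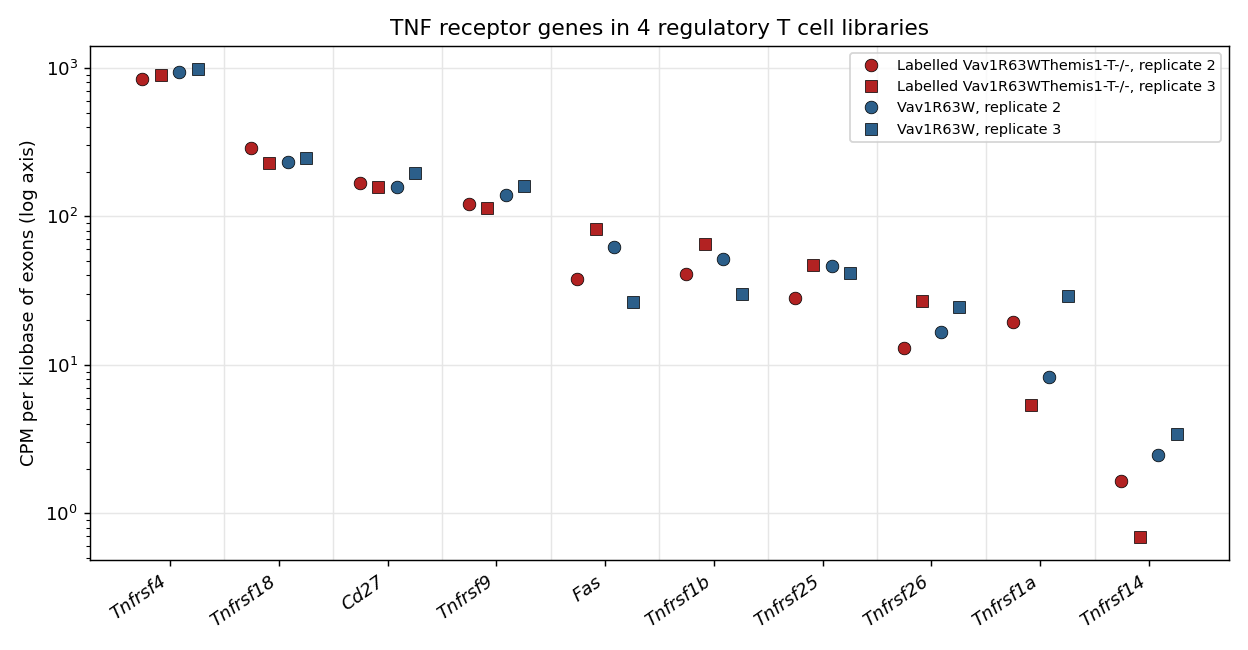
Levels of the 10 TNF receptor genes in each of the 4 libraries, in CPM per kilobase of merged exons on a log axis. Red marks the libraries labelled Vav1R63WThemis1-T-/- and blue the Vav1R63W libraries, circles replicate 2 and squares replicate 3. Tnfrsf4 is highest and Tnfrsf14 lowest in every library.

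Per kilobase of exons, Tnfrsf4 was the most abundant of the 10 in each of the 4 libraries, followed by Tnfrsf18, Cd27 and Tnfrsf9, and Tnfrsf14 was the least abundant in each. The lowest, median and highest levels over the 4 libraries were 846, 917 and 977 CPM per kilobase for Tnfrsf4 and 230, 240 and 288 CPM per kilobase for Tnfrsf18. The ranges of neighbours in this order overlapped for Cd27 and Tnfrsf9, Fas and Tnfrsf1b, Tnfrsf1b and Tnfrsf25, and Tnfrsf26 and Tnfrsf1a. The 10 genes together took 0.271% and 0.287% of gene reads in the libraries labelled Vav1R63WThemis1-T-/-, against 0.289% and 0.302% in the Vav1R63W libraries. Tnfrsf4 made up 42.6% and 42.4% of these receptor reads in the libraries labelled Vav1R63WThemis1-T-/-, against 44.4% and 44.2% in the Vav1R63W libraries. These levels and shares are from the unstranded count column, which leaves out most Tnfrsf18 reads, as described below. The shares were not recomputed with those reads. In that column the summed level of the family thus varied little, while single members below the leading 4 varied more.

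Tnfrsf4 (ENSMUSG00000029075) encodes OX40, a costimulatory receptor for OX40 ligand that regulatory T cells carry at rest. It was at 1154 and 1219 CPM in the libraries labelled Vav1R63WThemis1-T-/-, against 1285 and 1334 CPM in the Vav1R63W libraries. The groups did not overlap, with both libraries labelled Vav1R63WThemis1-T-/- lower, but the means, 1187 ± 46.0 and 1309 ± 34.7 CPM (SD, n = 2 each), differed by little. The log2 fold change was -0.12 ± 0.11 (SE), with a 95% interval of -0.41 to 0.18 and an edgeR adjusted p of 1.000.

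Tnfrsf9 (ENSMUSG00000028965, chr4:150914562-150946102) encodes 4-1BB, a costimulatory receptor that T cell receptor signals induce. It was at 330 and 310 CPM in the libraries labelled Vav1R63WThemis1-T-/-, against 380 and 435 CPM in the Vav1R63W libraries. The groups again did not overlap, with the labelled deletion lower. The log2 fold change was -0.32 ± 0.16 (SE, 95% interval -0.76 to 0.11), with an edgeR adjusted p of 1.000, a DESeq2 adjusted p of 0.794 and a limma-voom adjusted p of 0.821. In the authors' deposited table it was -0.31 with an unadjusted p of 0.0463 and an adjusted p of 0.486. Of the 10 receptor genes it had the smallest adjusted p with DESeq2 and in the authors' deposited table.

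Tnfrsf18 (ENSMUSG00000041954) encodes GITR, a costimulatory receptor used to mark regulatory T cells. It was at 439 and 351 CPM in the libraries labelled Vav1R63WThemis1-T-/-, against 356 and 375 CPM in the Vav1R63W libraries. The groups overlapped, and replicate 2 of the labelled deletion was the highest of the 4 libraries. The fitted log2 fold change was 0.14 ± 0.17 (SE, 95% interval -0.32 to 0.59, edgeR adjusted p = 1.000).

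Most Tnfrsf18 reads of the strand columns are missing from the unstranded column: 54.1% and 59.3% in the libraries labelled Vav1R63WThemis1-T-/-, against 58.7% and 60.8% in the Vav1R63W libraries. The strand columns of Tnfrsf18 summed to 15267 and 12045 reads in the libraries labelled Vav1R63WThemis1-T-/-, against 12057 and 13773 reads in the Vav1R63W libraries. These sums are 2.18 and 2.46 times the unstranded counts in the libraries labelled Vav1R63WThemis1-T-/-, against 2.42 and 2.55 times in the Vav1R63W libraries. The antisense gene Gm16008 (ENSMUSG00000087381, chr4:156022008-156031643, minus strand) shares 414 exon bases with Tnfrsf18, or 27.2% of the exon bases of Tnfrsf18. The reads held by the strand columns and not by the unstranded column numbered 8258 and 7146 for Tnfrsf18 in the libraries labelled Vav1R63WThemis1-T-/-, against 7076 and 8377 in the Vav1R63W libraries. For Gm16008 these reads numbered 8258 and 7144 in the libraries labelled Vav1R63WThemis1-T-/-, against 7077 and 8378 in the Vav1R63W libraries, within 2 reads of Tnfrsf18 in each library. The unstranded column thus leaves out reads in the shared stretch. What it kept for Gm16008 was 11 and 9 reads in the libraries labelled Vav1R63WThemis1-T-/-, against 1 and 43 reads in the Vav1R63W libraries. For Tnfrsf18 it kept 7009 and 4899 reads, against 4981 and 5396 reads. The strand columns of Tnfrsf18 were near equal in each library (7655 and 7612 in replicate 2 of the labelled deletion), so strand does not assign the left-out reads. Their gene of origin was not tested.

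With the strand columns summed, Tnfrsf18 was at 957 and 863 CPM in the libraries labelled Vav1R63WThemis1-T-/-, against 861 and 957 CPM in the Vav1R63W libraries. The means of these sums were 910 ± 66.7 CPM in the libraries labelled Vav1R63WThemis1-T-/- and 909 ± 67.6 CPM in the Vav1R63W libraries (SD, n = 2 each). The edgeR log2 fold change of Tnfrsf18 was 0.05 in the first strand column and 0.01 in the second. On this count Tnfrsf18 averaged 597 CPM per kilobase over the 4 libraries, still second to Tnfrsf4 at 914. The strand columns of 8 other receptor genes summed to their unstranded counts, and those of Tnfrsf26 to at most 1.04 times them.

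**Figure D2:**
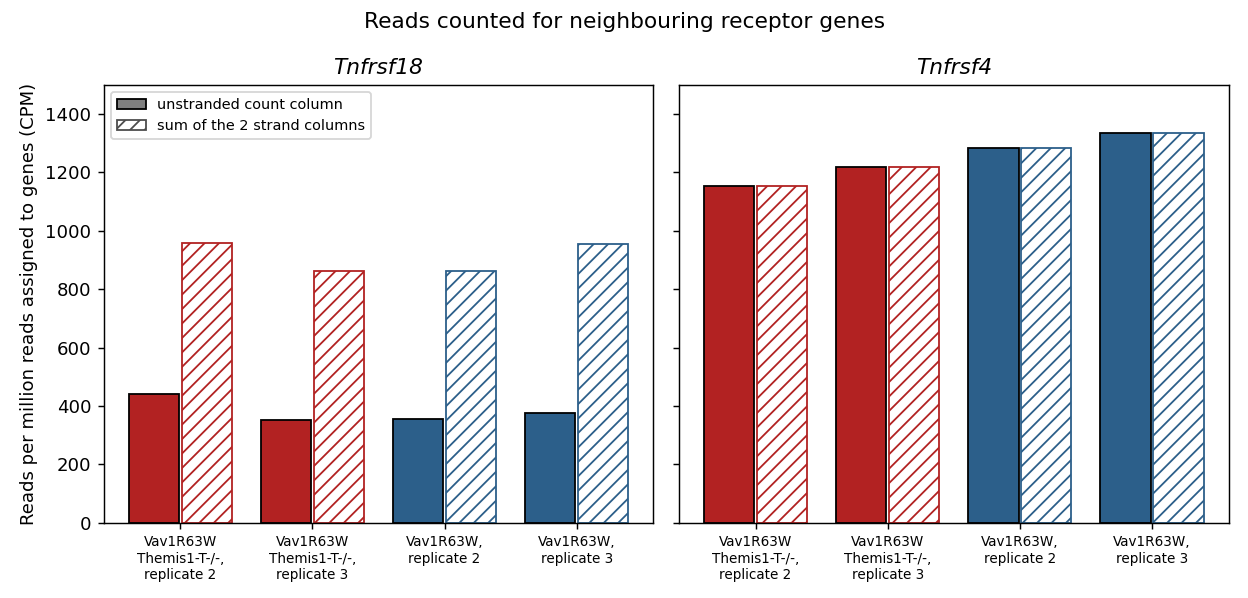
Reads per megaread assigned to genes (CPM) for the neighbours Tnfrsf18 and Tnfrsf4 in each library, as filled bars for the unstranded column and hatched bars for the sum of the strand columns. The libraries labelled Vav1R63WThemis1-T-/- are red and the Vav1R63W libraries blue. The hatched bars of Tnfrsf18 are over 2 times the filled ones in every library, while those of Tnfrsf4 are equal.

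Cd27 (ENSMUSG00000030336, chr6:125232622-125237010) encodes the receptor for CD70 and is a costimulatory receptor of resting T cells. It was at 392 and 369 CPM in the libraries labelled Vav1R63WThemis1-T-/-, against 365 and 454 CPM in the Vav1R63W libraries. Both libraries labelled Vav1R63WThemis1-T-/- lay between the Vav1R63W libraries. The log2 fold change was -0.08 ± 0.18 (SE, 95% interval -0.57 to 0.41, edgeR adjusted p = 1.000). For Tnfrsf4, Tnfrsf9, Tnfrsf18 and Cd27, 4 of the 10, the 95% interval lay within a 2-fold change in both directions. For the other 6 it did not, so a change of that size could not be bounded at this spread.

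**Figure D3:**
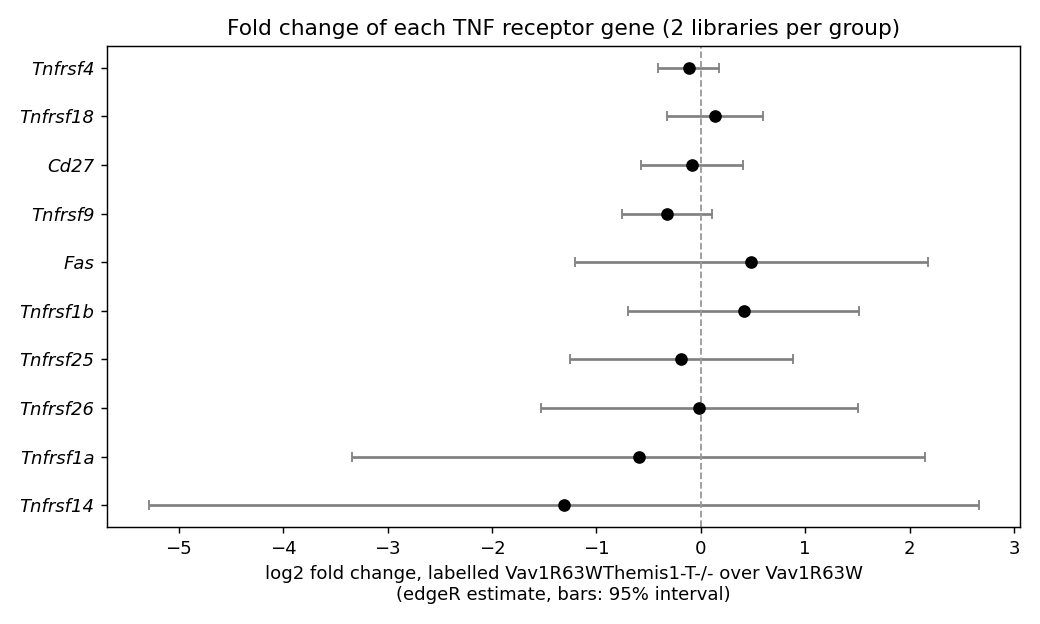
Log2 fold changes, libraries labelled Vav1R63WThemis1-T-/- over Vav1R63W libraries, with 95% intervals from the edgeR fit, for the 10 receptor genes. All intervals hold 0, and those of Tnfrsf4, Tnfrsf9, Tnfrsf18 and Cd27 are the ones within 2-fold either way.

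Of the 10 receptor genes, Tnfrsf1a had the largest ratio between libraries of the same label, in both labels. Tnfrsf1a (ENSMUSG00000030341, chr6:125349362-125362484) encodes TNFR1, a death domain receptor of many cell types. It was at 50.3 and 13.9 CPM in the libraries labelled Vav1R63WThemis1-T-/-, against 21.3 and 75.6 CPM in the Vav1R63W libraries. The groups overlapped throughout, and the libraries of a label differed 3.62-fold in the labelled deletion and 3.55-fold in Vav1R63W. Poisson 95% intervals, which cover counting error only, were 46.9 to 53.9 and 12.0 to 16.0 CPM in the libraries labelled Vav1R63WThemis1-T-/-, against 18.9 to 23.8 and 71.2 to 80.3 CPM in the Vav1R63W libraries. The log2 fold change was -0.59 ± 1.01 (SE), with an edgeR adjusted p of 1.000.

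Tnfrsf1b (ENSMUSG00000028599, chr4:145213463-145246870) encodes TNFR2, which has no death domain and supports the expansion of regulatory T cells. It was at 155 and 247 CPM in the libraries labelled Vav1R63WThemis1-T-/-, against 196 and 114 CPM in the Vav1R63W libraries. The highest and the second lowest level were both in the labelled deletion, so the groups overlapped, with a log2 fold change of 0.41 ± 0.41 (SE, edgeR adjusted p = 1.000). Where Tnfrsf1b was higher, Tnfrsf1a was lower: the ratio of Tnfrsf1b to Tnfrsf1a per kilobase was 2.09 and 12.0 in the libraries labelled Vav1R63WThemis1-T-/-, against 6.26 and 1.02 in the Vav1R63W libraries. Tnfrsf1b was the more abundant per kilobase in each of the 4 libraries.

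Fas (ENSMUSG00000024778, chr19:34290666-34327772) encodes the death receptor of Fas ligand. It was at 77.7 and 169 CPM in the libraries labelled Vav1R63WThemis1-T-/-, against 127 and 54.2 CPM in the Vav1R63W libraries. The Vav1R63W libraries held both the lowest level and the second highest, and the log2 fold change was 0.48 ± 0.62 (SE) at an edgeR adjusted p of 1.000. Tnfrsf25 (ENSMUSG00000024793, chr4:152115934-152120119) encodes DR3, a death domain receptor that can expand regulatory T cells when its ligand TL1A engages it. It was at 64.1 and 107 CPM in the libraries labelled Vav1R63WThemis1-T-/-, against 105 and 94.9 CPM in the Vav1R63W libraries. Here replicate 2 of the labelled deletion was the low library and the other 3 lay close together, with a log2 fold change of -0.19 ± 0.39 (SE, edgeR adjusted p = 1.000).

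Tnfrsf26 (ENSMUSG00000045362, chr7:143607659-143628722) lies on chromosome 7 and encodes a mouse receptor of the family. It was at 41.7 and 86.3 CPM in the libraries labelled Vav1R63WThemis1-T-/-, against 53.1 and 78.8 CPM in the Vav1R63W libraries. The labelled deletion held both the lowest and the highest level, and the log2 fold change was -0.01 ± 0.56 (SE) at an edgeR adjusted p of 1.000. Tnfrsf14 (ENSMUSG00000042333, chr4:154921933-154928563) encodes HVEM, a receptor for LIGHT that also binds BTLA. It had only 38 and 14 reads in the libraries labelled Vav1R63WThemis1-T-/-, against 50 and 71 reads in the Vav1R63W libraries. These are 2.38 and 1.00 CPM in the libraries labelled Vav1R63WThemis1-T-/-, against 3.57 and 4.93 CPM in the Vav1R63W libraries. The groups did not overlap, with the labelled deletion lower. The Poisson 95% intervals of replicate 2 of each label, 1.69 to 3.27 CPM in the labelled deletion and 2.65 to 4.71 CPM in Vav1R63W, did overlap. The log2 fold change was -1.31 ± 1.48 (SE), with an edgeR adjusted p of 1.000.

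The receptor genes whose groups overlapped followed different libraries. For Tnfrsf18, Tnfrsf1a and Cd27 the 2 highest libraries were replicate 2 of the labelled deletion and replicate 3 of Vav1R63W. The same 2 libraries were highest for 16.7% of all tested genes. For Tnfrsf1b, Tnfrsf25 and Fas they were replicate 3 of the labelled deletion and replicate 2 of Vav1R63W, as for 15.3% of tested genes. The labels and files name no batch that separates these libraries.

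**Figure D4:**
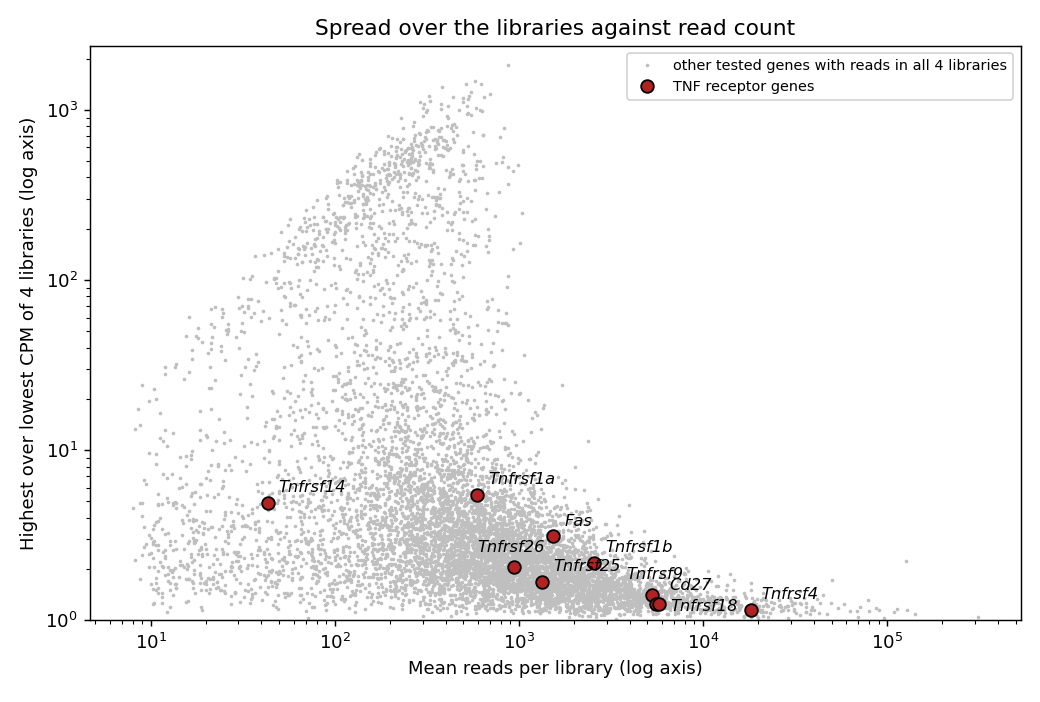
Ratio of the highest to the lowest CPM over the 4 libraries against mean reads per library, both on log axes, for the 8319 tested genes with reads in every library. Red points are the 10 receptor genes, from Tnfrsf4 at 1.16 to Tnfrsf1a at 5.44, and grey points the other genes, which spread more widely at low counts.

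The highest level over the lowest of the 4 libraries was 1.16 for Tnfrsf4, 1.24 for Cd27, 1.25 for Tnfrsf18 and 1.40 for Tnfrsf9. It was 3.11 for Fas and 5.44 for Tnfrsf1a. Among tested genes within 2-fold of the same mean reads, 82.3% had a smaller ratio than Fas, 73.7% a smaller one than Tnfrsf1a, and 26.1% a smaller one than Tnfrsf4. The steady level of the abundant receptors and the uneven level of TNFR1 each had many equals among genes of their read counts.

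Replicate 2 of the labelled deletion has Themis reads that do not bear out its label. Without it, the remaining library was below both Vav1R63W libraries for 5 receptor genes in the unstranded column: Tnfrsf4, Tnfrsf9, Tnfrsf18, Tnfrsf1a and Tnfrsf14. Over all genes tested this share was 39.9%. It was 5 of the 10 without replicate 3 of the labelled deletion (33.0% of all genes) and 5 without Vav1R63W replicate 2 (32.9%), and 3 without Vav1R63W replicate 3 (33.9%). Tnfrsf4, Tnfrsf9 and Tnfrsf14 were among them each time, which their order in the full set fixes. All these counts are from the unstranded column. With the strand columns summed, Tnfrsf18 was at 862.6 CPM in replicate 3 of the labelled deletion, against 861.0 and 956.6 CPM in Vav1R63W. On that count Tnfrsf18 was not below both.

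Among the receptor genes and the tested genes of the pathway lists, a pool of 73, the level of Tnfaip3 over the 4 libraries was most like that of Tnfrsf4 and of Tnfrsf9. Likeness was the largest difference over the 4 libraries between log2 CPM centred on each gene's mean. Tnfaip3, which encodes the NF-kB inhibitor A20, came within 0.07 of Tnfrsf4 and 0.11 of Tnfrsf9, and 32 and 58 of all tested genes were as near. The next were Casp8 for Tnfrsf4 (0.12) and Cd27 for Tnfrsf9 (0.18). For Tnfrsf18 they were Nrp1 (0.20) and Capg (0.22), genes of regulatory T cells, with 340 and 424 tested genes as near. The Tnfrsf18 levels used here are from the unstranded column, which leaves out most of its reads. Likeness was not recomputed with the strand columns summed, so these neighbours hold for that column only.

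Of the 17 TNF superfamily ligand genes listed, 7 had no read, among them the ligand genes of OX40, GITR, CD27 and DR3 (Tnfsf4, Tnfsf18, Cd70 and Tnfsf15). A count of 0 allows up to 3 reads a library. Tnfsf9, the 4-1BB ligand gene, had 0 and 0 reads in the libraries labelled Vav1R63WThemis1-T-/-, against 3 and 28 reads in the Vav1R63W libraries. Tnf had 49 and 487 reads in the libraries labelled Vav1R63WThemis1-T-/-, against 0 and 128 reads in the Vav1R63W libraries. Fasl had 301 and 140 reads in the libraries labelled Vav1R63WThemis1-T-/-, against 20 and 172 reads in the Vav1R63W libraries. The receptors at the highest levels thus had ligand genes with no or few reads in these sorted cells, and Tnf and Fasl varied within labels.

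Of the 8 ligand genes tested, 6 had a positive and 2 a negative log2 fold change, with a median of 0.35, and edgeR called 0. Tnfsf11, which encodes RANKL, had 736 and 543 reads in the libraries labelled Vav1R63WThemis1-T-/-, against 18 and 83 reads in the Vav1R63W libraries. The groups did not overlap, with the labelled deletion higher, at a log2 fold change of 3.60 ± 1.17 (SE, edgeR adjusted p = 0.918, DESeq2 adjusted p = 0.0538). The authors' deposited table called it higher at a log2 fold change of 1.23 (adjusted p = 0.0477). Tnfrsf11a, which encodes its receptor RANK, had no read. The lymphotoxin genes were the most abundant ligand genes: Ltb was at 356 and 641 CPM in the libraries labelled Vav1R63WThemis1-T-/-, against 344 and 345 CPM in the Vav1R63W libraries, and Lta was at 130 and 143 CPM, against 121 and 130 CPM.

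**Figure D5:**
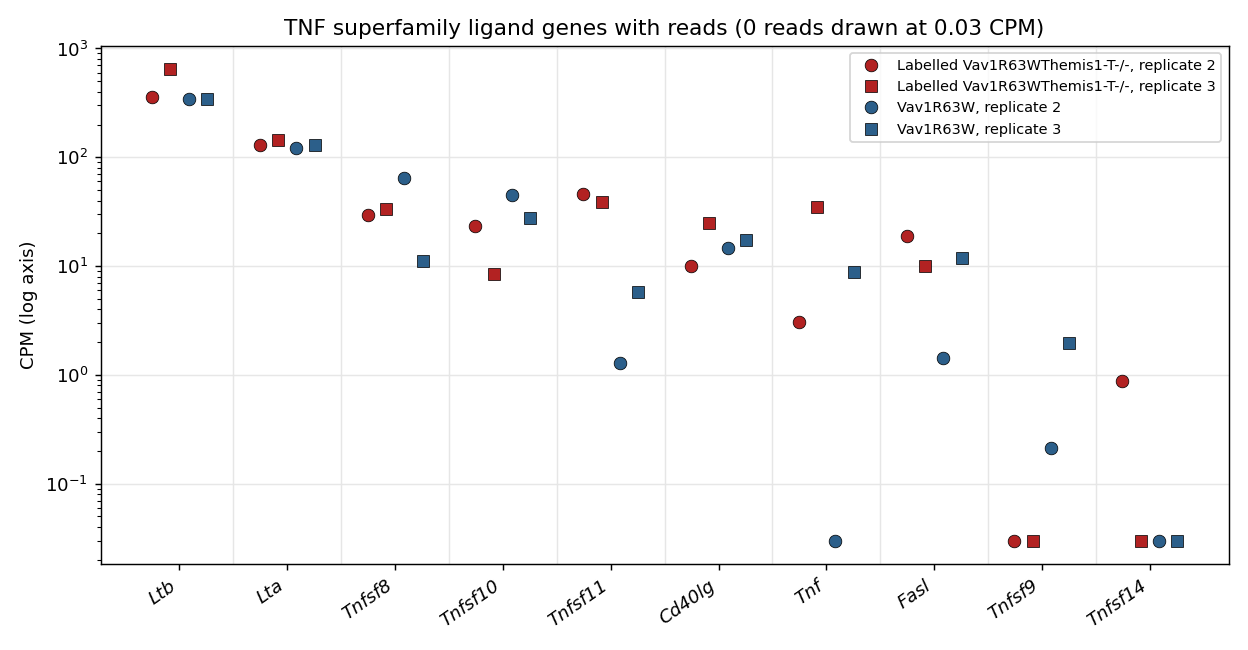
Levels of the TNF superfamily ligand genes with reads, in CPM on a log axis, in each library. Red marks the libraries labelled Vav1R63WThemis1-T-/-, blue the Vav1R63W libraries, and 0 reads are drawn at 0.03 CPM. Tnfsf11 is higher in both red libraries, and the levels of Tnf and Fasl overlap between labels.

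Of 18 other TNF receptor genes, 9 had no read, 5 were tested and 0 passed, 2 with a positive and 3 with a negative log2 fold change (median -0.18). Tnfrsf13b, which encodes TACI, was at 202 and 95.7 CPM in the libraries labelled Vav1R63WThemis1-T-/-, against 141 and 200 CPM in the Vav1R63W libraries. Relt was at 17.9 and 60.2 CPM in the libraries labelled Vav1R63WThemis1-T-/-, against 60.2 and 89.1 CPM in the Vav1R63W libraries. Both overlapped between labels. For Relt the overlap was narrow, at 60.23 CPM in replicate 3 of the labelled deletion and 60.20 CPM in Vav1R63W replicate 2.

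Downstream of the receptors, edgeR called 0 of 18 TRAF and ubiquitin adaptor genes, 8 with a positive and 10 with a negative log2 fold change (median -0.09). Rnf31, which encodes the ligase subunit HOIP of the linear ubiquitin complex, was at 20.0 and 6.80 CPM in the libraries labelled Vav1R63WThemis1-T-/-, against 72.1 and 53.0 CPM in the Vav1R63W libraries. Its groups did not overlap, and its log2 fold change was -2.21 ± 0.78 (SE), at adjusted p of 0.976 (edgeR) and 0.256 (DESeq2). In the authors' deposited table it was -1.16 with an adjusted p of 0.0875. Traf1, an adaptor that NF-kB induces and OX40 and 4-1BB bind, was at 160 and 192 CPM in the libraries labelled Vav1R63WThemis1-T-/-, against 267 and 254 CPM in the Vav1R63W libraries. Rbck1, which encodes HOIL-1 of the same complex, overlapped at 286 and 202 CPM in the libraries labelled Vav1R63WThemis1-T-/-, against 369 and 224 CPM in the Vav1R63W libraries.

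Of the death receptor signalling list, 11 of 12 symbols were matched, 10 genes were tested, and 0 passed edgeR, 4 positive and 6 negative (median -0.16). Tradd, the adaptor of TNFR1 and DR3, was at 58.7 and 45.8 CPM in the libraries labelled Vav1R63WThemis1-T-/-, against 134 and 106 CPM in the Vav1R63W libraries. The groups did not overlap, with a log2 fold change of -1.17 ± 0.34 (SE, edgeR adjusted p = 0.900, DESeq2 adjusted p = 0.293). The authors' deposited table called Tradd lower at a log2 fold change of -0.99 (adjusted p = 0.0232). Casp8, the initiator caspase of death receptors, was at 348 and 346 CPM in the libraries labelled Vav1R63WThemis1-T-/-, against 418 and 381 CPM in the Vav1R63W libraries. Faim, an inhibitor of Fas-induced death, was at 78.3 and 153 CPM in the libraries labelled Vav1R63WThemis1-T-/-, against 54.9 and 75.4 CPM in the Vav1R63W libraries.

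Of 18 tested NF-kB kinase, subunit and inhibitor genes 0 passed edgeR, 5 positive and 13 negative (median -0.51). Tab2, an adaptor of the kinase TAK1, had 8 and 15 reads in the libraries labelled Vav1R63WThemis1-T-/-, against 269 and 299 reads in the Vav1R63W libraries. The groups lay far apart and the labelled deletion was lower, with a log2 fold change of -4.62 ± 1.60 (SE, edgeR adjusted p = 0.958, DESeq2 adjusted p = 0.0216). The authors' deposited table also called Tab2 lower, at -1.18 (adjusted p = 0.0496). DESeq2 here gave -4.63 on the same counts, so the deposited size is not on the same footing as those fitted here. Rela, the RelA subunit, was at 175 and 191 CPM in the libraries labelled Vav1R63WThemis1-T-/-, against 257 and 270 CPM in the Vav1R63W libraries, and Nfkbia, the inhibitor IkB alpha, overlapped at 554 and 933 CPM, against 668 and 742 CPM.

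Of 10 regulatory T cell identity genes 0 passed edgeR, 6 positive and 4 negative (median 0.03). Ctla4, an inhibitory receptor, was at 112 and 93.0 CPM in the libraries labelled Vav1R63WThemis1-T-/-, against 173 and 160 CPM in the Vav1R63W libraries. Ikzf4, which encodes Eos, was at 100.2 and 107 CPM in the libraries labelled Vav1R63WThemis1-T-/-, against 68.9 and 76.0 CPM in the Vav1R63W libraries. Il2rb was at 1193 and 1156 CPM in the libraries labelled Vav1R63WThemis1-T-/-, against 1559 and 1165 CPM in the Vav1R63W libraries, and Capg was at 1134 and 1190 CPM, against 979 and 1125 CPM. Among markers of activated conventional CD4 T cells, Cd40lg was at 10.03 and 24.6 CPM in the libraries labelled Vav1R63WThemis1-T-/-, against 14.8 and 17.5 CPM in the Vav1R63W libraries, and Tbx21 was at 0.0627 and 15.3 CPM, against 0.286 and 0 CPM. Their summed level was 13.2 and 44.1 CPM in the libraries labelled Vav1R63WThemis1-T-/-, against 18.4 and 18.8 CPM in the Vav1R63W libraries, with 1 of the 8 without a read. Replicate 3 of the labelled deletion, the library with the highest Fas and Tnfrsf1b, was the highest for this sum, and its part in those levels was not tested.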

How the data were processed

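RNA of sorted mouse regulatory T cells was sequenced in 4 libraries, assigned to 2 groups by the genotype in their labels. The submitters' processing notes name FastQC, Trim Galore, STAR and MultiQC for quality checks, trimming and alignment, without versions. The notes name the build mm9 and the design text Ensembl release 90, which are different builds. The authors deposited raw read counts per gene in 3 columns per library, unstranded and per strand, per the STAR file layout. The authors' deposited table holds the same unstranded counts in all genes, with a fold change as a linear ratio, log2 fold changes and p-values, per the file headers. According to the design text these come from DESeq2. For some genes the deposited log2 fold changes lie nearer 0 than those of DESeq2 here on the same counts. They were 1.23 against 3.60 for Tnfsf11 and -1.18 against -4.63 for Tab2. The reason was not tested, and such sizes are not to be compared. Another 4 per-sample columns of that table were not used. The 4 summary lines of each file, 22.6% and 23.1% of reads in the libraries labelled Vav1R63WThemis1-T-/- and 21.1% and 21.5% in the Vav1R63W libraries, were left out. Symbols were matched for 52403 of 52636 gene IDs, and coordinates and exon lengths are those of GENCODE (GRCm38), by gene ID.

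Levels are CPM by library total. The genotype comparison was fitted over all genes with edgeR 4.0.16 in R 4.3.3 (TMM, filterByExpr with a minimum count of 10 and total of 15, robust quasi-likelihood F test, two-sided, Benjamini-Hochberg adjustment, threshold 0.05, no block). The standard error is the log2 fold change over the square root of F. Alternatives were DESeq2 1.42.0, limma-voom (limma 3.58.1), other scalings and filters, the strand columns, a replicate block and leaving out each library. Scripts were tested on simulated counts. Same-numbered libraries did not deviate together (r = 0.021 over 10216 genes, across genes, which are not independent). The receptor genes and lists were chosen with earlier results of these data known. Named genes are all 10 receptor genes, Themis and Vav1, of each pathway list the 2 with the smallest edgeR p and the 2 with the highest mean CPM, of each marker list the 2 with the highest mean CPM (1 marker list is not reported here), and the 2 nearest in pattern to Tnfrsf4, Tnfrsf9 and Tnfrsf18. Foxp3 and ligands paired with the receptors were named outside this rule after their values were seen. Tnfrsf8, Tnfrsf11a, Tnfrsf22 and Tnfrsf23 were likewise named outside this rule. Counting intervals are exact Poisson and cover counting error only, since PCR copies are not independent molecules.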

Additional observations from a re-analysis of the deposited data

How the results depend on the processing

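The number of genes called was 0 with edgeR and under each alternative but DESeq2 at its defaults, which called 206. With the replicate block 0 genes were called and 163 had an unadjusted p under 0.05. Same-numbered libraries share only a number, so no pairing is read from it. No receptor gene was called under any alternative (lowest adjusted p = 0.629, for Tnfrsf9). Leaving out each library in turn, the log2 fold change ran from -0.19 to -0.06 for Tnfrsf4, -0.45 to -0.20 for Tnfrsf9, -2.03 to -0.84 for Tnfrsf14 and 0.00 to 0.82 for Tnfrsf1b, which did not reverse. It ran from -0.014 to 0.26 for Tnfrsf18, -1.77 to 0.63 for Tnfrsf1a, -0.26 to 0.11 for Cd27, -0.64 to 0.15 for Tnfrsf25, -0.67 to 0.43 for Tnfrsf26 and -0.22 to 1.19 for Fas, which changed sign. It also changed sign for Themis (-10.55 to 1.68), Cd40lg (-0.69 to 0.65), Il2rb (-0.36 to 0.0082), Nfkbia (-0.35 to 0.45), Rbck1 (-0.56 to 0.11) and Tnfrsf13b (-0.79 to 0.24). Themis was at -3.05 with limma-voom and -2.93 with the replicate block, and Cd40lg at -0.086 and -0.0074. The receptor genes lower without overlap in the unstranded column, a check chosen after seeing the data, numbered 3 to 5. Of 403 gene by setting values, 382 kept their direction and side of the threshold, and Tab2 passed with DESeq2. The causes of these moves were not tested. With 2 libraries per label, changes of 2-fold could not be bounded for 6 receptor genes, and the label of replicate 2 of the libraries labelled Vav1R63WThemis1-T-/- limits every direction.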

Other observations

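Relatives of Tnfrsf26 and other receptors with few reads varied within labels. Tnfrsf22 had 107 and 713 reads in the libraries labelled Vav1R63WThemis1-T-/-, against 401 and 658 reads in the Vav1R63W libraries. Tnfrsf23 had 92 and 0 reads in the libraries labelled Vav1R63WThemis1-T-/-, against 62 and 0 reads in the Vav1R63W libraries. Tnfrsf8, which encodes CD30, had 1 and 0 reads in the libraries labelled Vav1R63WThemis1-T-/-, against 40 and 1 reads in the Vav1R63W libraries. Tnfrsf22, Tnfrsf23 and Tnfrsf26 are related in sequence, and the files do not show whether reads were shared between them. Vav1, whose R63W allele both groups carry, was at 160 and 73.5 CPM in the libraries labelled Vav1R63WThemis1-T-/-, against 206 and 253 CPM in the Vav1R63W libraries (log2 fold change -0.96 ± 0.44, SE, edgeR adjusted p = 1.000). Of the dendritic cell markers 6 of 8 had no read, and the sum of Ly6d and Zbtb46 was 22.7 and 35.9 CPM in the libraries labelled Vav1R63WThemis1-T-/-, against 6.64 and 0 CPM in the Vav1R63W libraries. Cd8b1 was at 30.3 and 19.3 CPM in the libraries labelled Vav1R63WThemis1-T-/-, against 26.1 and 38.5 CPM in the Vav1R63W libraries.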
